A study of Sus scrofa with 4 samples.

Results

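miR-378 was followed as a single gene among the 189 miRNAs that had a read in 4 small RNA libraries of primary pig cells. It was taken as the rows of the pig hairpin resource named mir-378, whatever their copy number, and each library listed 2 of them, mir-378-1 and mir-378-2. Each group held 1 library. IVSC are vascular stem cells from the dorsal longissimus dorsi, a back muscle, and SVSC are those from subcutaneous fat, both at passage 1. IVSC MDI and SVSC MDI are the same kinds of culture after adipogenic induction with an isobutylmethylxanthine (0.5 mM, a phosphodiesterase inhibitor), dexamethasone (0.25 µM, a glucocorticoid) and insulin (5 mg/l) mixture. The inhibitor and dexamethasone were withdrawn after 3 days, growth medium came back at day 6, and harvest followed 3 or 4 days later, with the day of each library not given. Growth and induction media held 20% fetal bovine serum. The labels give no genotype, age or animal, and they call all 4 samples adipose derived, those from muscle included. They also do not say whether a library comes from 1 animal or several. No transcript of fat cells was measured, so how far the induced cultures had become adipocytes cannot be read from these files.

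miR-378 is carried in an intron of the gene for PGC-1β, a coactivator that switches on mitochondrial and fatty acid metabolism genes. A miRNA in an intron can be made from the transcript of its host gene. miR-378 is known for acting on lipid storage and oxidative metabolism in adipocytes, liver and muscle, with the carnitine acetyltransferase CRAT among its reported targets. In RefSeq (assembly Sscrofa11.1), MIR378-1 lies within PPARGC1B, the PGC-1β gene, whereas MIR378-2 lies within BCAS3, another protein-coding gene. The name of an intronic miRNA of PGC-1β therefore applies to 1 of the 2 hairpins counted here. The files hold no coordinates of that build, so none are given.

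Where 4 values stand in a row below, they follow the order IVSC, IVSC MDI, SVSC, SVSC MDI. miRNA reads numbered 13252168, 14810112, 17937121 and 2573249. The upper limit set by an absence of reads, 3 reads, equals 0.226, 0.203, 0.167 and 1.17 CPM, the reads per 1000000 miRNA reads. Hairpins held 55.01% of all listed reads in SVSC MDI and 70.2% to 77.0% in the other libraries. Ranges in parentheses are exact 95% intervals that cover counting error only. PCR copies were not marked by molecular identifiers and count as separate reads, so the intervals can be too narrow even for that error. No group has a second library, so no difference has a replicate check and no p-value is given. Fell, rose and called stand for a CPM ratio of at least 2-fold whose interval excludes 1. In such bulk samples a change in the number of cells that make a miRNA and a change in its amount per cell cannot be told apart.

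Counted over whole hairpins, miR-378 was the third most abundant miRNA in all 4 libraries. It had 1731630, 950803, 1174476 and 227887 reads. These equal 130668, 64200, 65477 and 88560 CPM. IVSC stood highest, IVSC MDI and SVSC were nearly level, and SVSC MDI lay between them and IVSC. As shares of the miRNA reads the levels were 13.1% (13.05 to 13.08), 6.42% (6.41 to 6.43), 6.55% (6.54 to 6.56) and 8.86% (8.82 to 8.89). miR-143 and miR-21 were the pair above it in every library. The miRNA directly below was miR-148a in IVSC and SVSC MDI and let-7f in IVSC MDI and SVSC. The gap to that next miRNA was widest in IVSC, where miR-378 had 2.94 times as many reads, and narrowest in SVSC, at 1.37 times.

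IVSC held the highest level of miR-378 under all 11 ways of counting and scaling that were run, 1.38 to 1.81 times that of the next library. The order of the other 3 libraries was not stable. Under TMM scaling the levels were 127390, 60894, 81098 and 77323 CPM, and SVSC stood above SVSC MDI. Scaled to all listed reads they were 80203, 45845, 45654 and 44109, and the last 3 differed by at most 1.04 times.

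**Figure D1:**
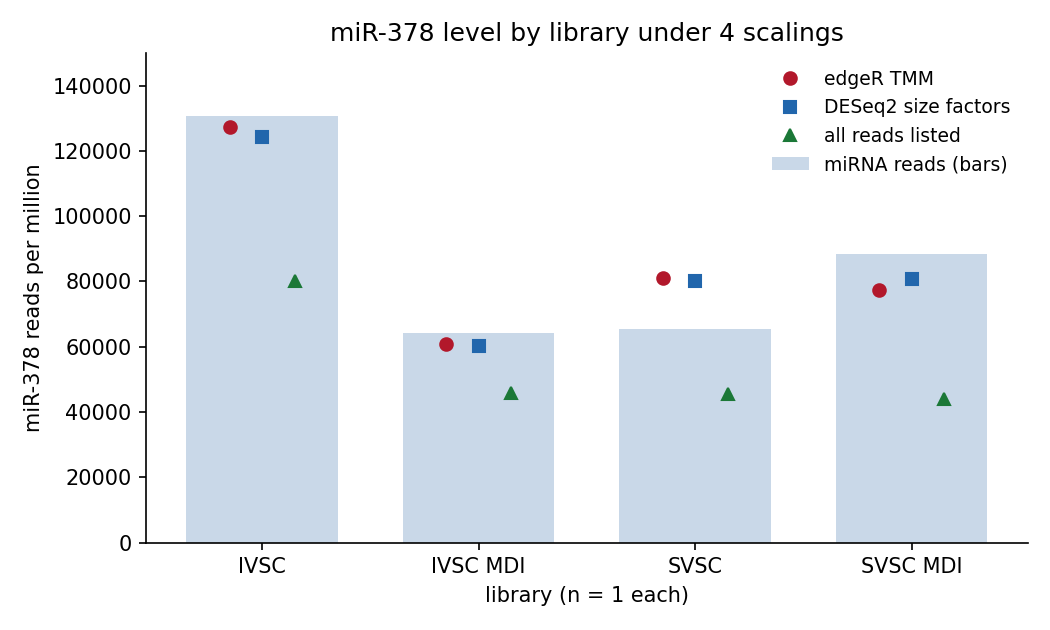
Level of miR-378 in reads per 1000000 on the y axis for the 4 libraries (n = 1 each), as bars under scaling to miRNA reads and as points under TMM, DESeq2 and all-read scaling. IVSC is highest under each of them, from 80203 under all-read scaling to 130668 under scaling to miRNA reads, while the order of the other 3 libraries changes with the scaling.

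With MDI in the muscle-derived culture, the question was whether miR-378 changed with adipogenic induction. It fell 2.04-fold (2.03 to 2.04), from 130668 to 64200 CPM. Of the 152 miRNAs at 10 CPM or more in either library, 23.7% fell and 16.4% rose (36 and 25), so a fall of this kind was common. Among them 35 had a lower ratio than miR-378 and 116 a higher one, a place that no common scaling factor alters. Its log2 ratio of -1.02 lay 0.99 below the median of all 152. Of the 43 miRNAs that averaged 1000 CPM or more, 7 had a lower ratio. The call ended under 6 of the 10 alternatives, with ratios of 0.516 to 0.631 in place of 0.491, and the direction held under all 10. The balance of calls over all miRNAs also moved. Under scaling to all listed reads 32 rose and 21 fell (31 and 27 with hairpin copies counted once), and without miR-143 and miR-21 in the total 42 rose and 19 fell. Mature reads scaled to their own total gave 31 and 23, and exactly matching reads scaled to theirs 25 and 19.

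With MDI in the fat-derived culture, miR-378 did not pass 2-fold. It stood at 65477 CPM before and 88560 CPM after induction, a ratio of 1.35 (1.35 to 1.36). In this pair 34.2% of 146 miRNAs rose and 21.9% fell (50 and 32). miR-378 sat in the middle of them, with 74 miRNAs at a lower and 71 at a higher ratio, and its log2 ratio of 0.44 lay 0.02 above the median of 0.41. The direction was not stable: the ratio was 0.953 under TMM scaling and 0.966 under scaling to all listed reads. Under TMM 36 miRNAs rose and 45 fell, under DESeq2 size factors 38 and 42, under all listed reads 33 and 44 (34 and 44 with copies once), and on exactly matching reads 35 and 34.

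The change with MDI thus differed between the cultures by 1.46 on the log2 scale (1.45 to 1.47, from the counting errors of the 4 counts), which is 2.75-fold. Of the 143 miRNAs compared in both cultures, 118 had a smaller difference of SVSC minus IVSC and 25 a larger one, with a median of 0.46. A ratio below 1 in IVSC and above 1 in SVSC was found for 28 of the 143. The difference stayed above 0 under all 8 alternatives run on it, from 0.76 to 1.70. It was not tested against a spread between cultures, since each group held 1 library.

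**Figure D2:**
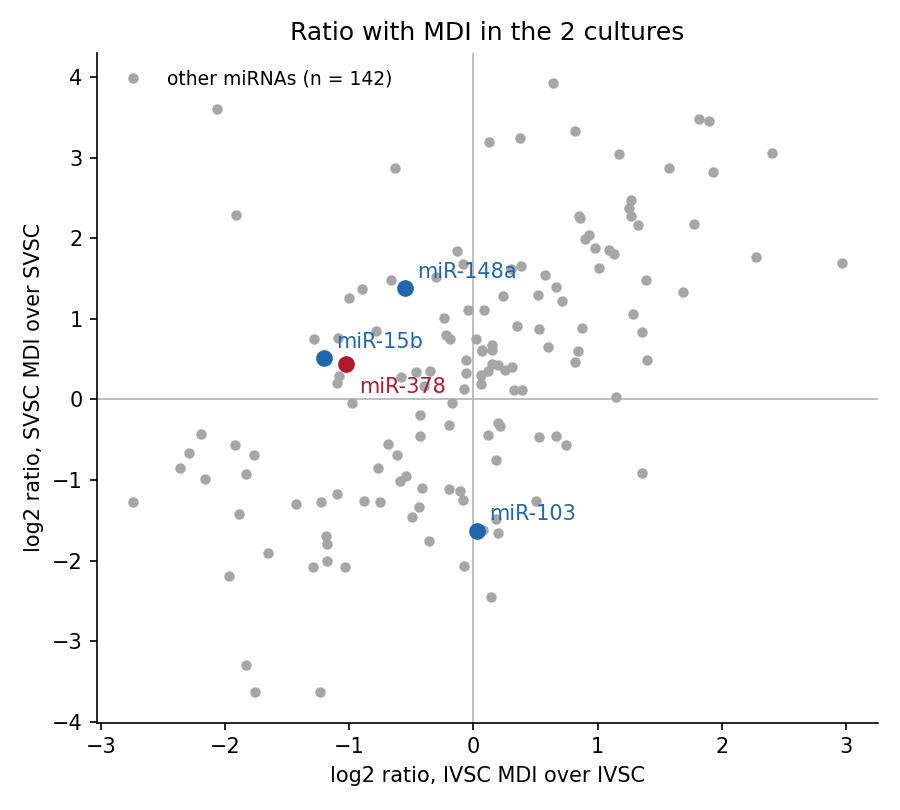
Log2 CPM ratio with MDI in IVSC (x axis) and in SVSC (y axis) for 143 miRNAs, each point 1 miRNA. miR-378 (-1.02 and 0.44) and miR-15b (-1.21 and 0.51) lie side by side at the upper left, and miR-103 (0.03 and -1.63) lies below the middle.

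The origin of the cells was compared before and after induction. These comparisons use the same 4 libraries as the changes with MDI and are not independent of them. Before induction, miR-378 stood at 130668 CPM in IVSC and 65477 CPM in SVSC, a ratio of 0.501 (0.4999 to 0.502) that lay just short of 2-fold. In this pair 20.9% of 148 miRNAs were called lower in SVSC and 7.43% higher (31 and 11), and 31 had a lower ratio than miR-378. With miR-378 left out of the total the ratio was 0.466, and with mature reads scaled to all mature reads it was 0.432, both past 2-fold. Mature reads scaled to all miRNA reads gave 0.5005 (0.4993 to 0.502). TMM scaling gave 28 lower and 24 higher calls, DESeq2 size factors 24 and 28, and exactly matching reads 23 and 18. After induction, miR-378 stood at 64200 CPM in IVSC MDI and 88560 CPM in SVSC MDI, a ratio of 1.38 (1.37 to 1.39) that was not called. Here 17.7% of 147 miRNAs were higher in SVSC MDI and 10.2% lower (26 and 15). Under scaling to all listed reads the ratio of miR-378 was 0.962, beside 7 higher and 29 lower calls (7 and 31 with copies once). TMM gave 21 higher and 20 lower calls, a total without miR-143 and miR-21 15 and 38, mature reads 18 and 18, and exactly matching reads 9 and 22.

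Some cell type markers were also highest in IVSC. Of 6 skeletal muscle miRNAs listed, 5 were detected, and their summed levels were 6275, 1137, 1853 and 888 CPM. miR-206, specific to skeletal muscle and its precursors, accounted for 4874, 139.6, 2.79 and 1.55 CPM of these. miR-133b (68.8, 16.5, 1.34 and 16.3 CPM) was likewise highest in IVSC. The other members were not: miR-1 was highest in SVSC (1242, 882, 1818 and 661 CPM), miR-133a in SVSC MDI (78.2, 85.5, 21.6 and 198.6 CPM) and miR-499 in IVSC MDI (12.8, 13.3, 9.20 and 10.5 CPM). All 5 perivascular and mesenchymal miRNAs were detected and summed to 359421, 401780, 262057 and 409082 CPM. The endothelial miR-126, at 134.1, 89.6, 52.6 and 63.7 CPM, was also highest in IVSC. The blood list (2 of 4 detected) summed to at most 34.9 CPM, the epithelial list (1 of 5) to 3.5, the neuronal list (1 of 2) to 77.3 and the liver miR-122 to 24.1. The part of muscle or endothelial cells in the miR-378 levels was not tested.

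The reads on the hairpins themselves were then examined. Almost all lay on the annotated mature miRNA: 99.71%, 99.85%, 99.58% and 99.78%. The rest of the hairpin held 5073, 1387, 4902 and 512 reads, or 0.293%, 0.146%, 0.417% and 0.225% of the total. Among 53 miRNAs with 1000 or more mature reads in every library, this was the smallest share in both IVSC libraries and the second smallest in both SVSC libraries, where the median miRNA had 1.71% to 3.03%. No read was listed on a star strand, the passenger arm opposite the mature one. Star reads were listed for only 9 of the 189 miRNAs, so reads of the passenger arm may sit within the rest of the hairpin and cannot be told apart from loop reads.

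The reads outside the mature miRNA did not follow the mature ones. In IVSC they went from 383 to 93.7 CPM with MDI, a ratio of 0.245 (0.230 to 0.260), beside 0.492 (0.491 to 0.493) for the mature reads. In SVSC they went from 273 to 199.0 CPM, a ratio of 0.728 (0.663 to 0.798), beside 1.36 (1.35 to 1.36) for the mature reads. In both cultures the ratio of these reads was thus about the same step below that of the mature reads, by 1.01 (IVSC) and 0.90 (SVSC) on the log2 scale. Among miRNAs with 100 or more such reads in both libraries, 9 of 45 in IVSC and 6 of 32 in SVSC had a larger step downward, with medians of -0.28 and 0.08.

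Reads of a mature miRNA that do not match it exactly are isomiRs, with bases added, missing or changed. Exactly matching reads of miR-378 numbered 1543460, 841133, 1068386 and 182813, and isomiR reads 183097, 108283, 101188 and 44562. The isomiR share of its mature reads was 10.6% (10.56 to 10.65), 11.4% (11.3 to 11.5), 8.65% (8.60 to 8.70) and 19.6% (19.4 to 19.8). SVSC MDI stood apart from the other 3 libraries. miR-378 matched its annotated sequence more often than most. From the lowest share upward it was number 7, 5, 7 and 8 of the 53 miRNAs, whose medians were 42.6%, 37.4%, 37.6% and 34.1%.

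In SVSC the isomiR share of miR-378 was 10.95 percentage points higher with MDI. Of 53 miRNAs, 18.9% (10) were at least 10 points higher, 7 of them by more than miR-378, 6 were at least 10 points lower, and the median change was 1.02 points. Over the mature reads of all miRNAs the isomiR share went the other way, from 61.7% in SVSC to 37.7% in SVSC MDI. This pooled share weighs miR-21 most, which held 61.5% of mature reads in SVSC and 45.4% in SVSC MDI. The isomiR share of miR-21 itself went from 85.9% to 49.8%. In IVSC that of miR-378 was 0.80 points higher with MDI, where 9.76% of 82 miRNAs were at least 10 points higher and 5 at least 10 points lower. Between the induced cultures it was 8.19 points higher in SVSC MDI, short of the 10 points that 3.64% of 55 miRNAs passed. Other miRNAs of low isomiR share were also higher: of 16 below 20% in the 3 deeper libraries, miR-378 among them, 15 were higher in SVSC MDI than in SVSC, by a median of 8.22 points, and 14 in IVSC MDI than in IVSC, by a median of 3.36. The set of 16 was picked with its values in view. Its rule limited the share in the 3 deeper libraries and not in SVSC MDI, which favours a higher share in SVSC MDI. Of all 53 miRNAs, 29 were higher in SVSC MDI than in SVSC. SVSC MDI is also the shallowest library and the one with the fewest hairpin reads among all reads, and the part of library quality was not tested.

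**Figure D3:**
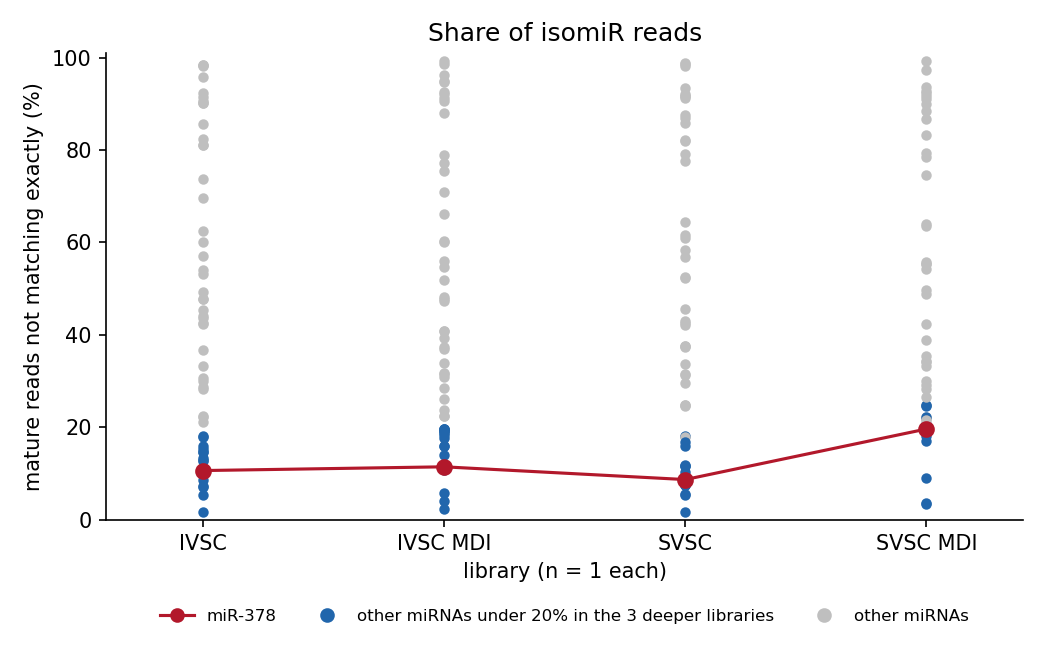
Percentage of mature reads that do not match the annotated miRNA exactly (y axis) in each library, for 53 miRNAs with 1000 or more mature reads in all 4. The red line joins the values of miR-378 (10.6%, 11.4%, 8.65% and 19.6%), which lie near the bottom of each library and are highest in SVSC MDI. The same held for most other miRNAs picked for a share under 20% in the 3 deeper libraries (blue), a rule that leaves SVSC MDI free.

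Exact and isomiR reads of miR-378 differed in their change in SVSC. Scaled to all miRNA reads, exactly matching reads had a ratio of 1.19 (1.187 to 1.199) with MDI, from 59563 to 71044 CPM, and isomiR reads one of 3.07 (3.04 to 3.10), from 5641 to 17317 CPM. Scaled instead to the exactly matching reads of all miRNAs, the ratio of exact reads was 0.907, so their direction in SVSC depends on the total. In IVSC the ratios on all miRNA reads were 0.488 and 0.529, and both kinds of read were lower with MDI there. Scaled to exactly matching reads alone, that of exact reads was 0.518. The rank of miR-378 depended on the reads counted. On mature reads alone it was second to miR-21 in all 4 libraries, with 21.2%, 10.9%, 9.16% and 15.4% of such reads. It moved up by the place of miR-143, most of whose reads were counted outside its annotated mature miRNA. The next miRNA on mature reads was miR-148a or let-7f, at 7.19%, 6.01%, 6.67% and 7.45%. On exactly matching reads alone the order changed again. miR-378 took 37.8% of all such reads in IVSC and was the most abundant miRNA there, ahead of miR-21 at 18.0%. Elsewhere it took 19.6%, 21.9% and 19.8% and was second to miR-21, which had 39.1%, 22.7% and 36.7%.

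The copies shared nearly all their reads, so the level of one hairpin cannot be given apart from that of the other. mir-378-1 and mir-378-2 differed by 173, 289, 230 and 491 reads, at most 0.216% of the total. No exactly matching read was unique to either copy. Mature reads that matched mir-378-1 alone numbered 100, 113, 172 and 419, and those that matched mir-378-2 alone 0, 0, 3 and 17. Of the mature reads that told the copies apart, the PPARGC1B copy thus held 100.0% (96.4 to 100.0), 100.0% (96.8 to 100.0), 98.3% (95.1 to 99.7) and 96.1% (93.8 to 97.7). Reads outside the mature miRNA were also more on mir-378-1, by 70, 174, 65 and 90, and are not in these shares. The mature reads unique to a copy are all isomiRs and a very small part of the reads. How the other reads divide between the copies was thus not measured. Those unique to mir-378-1, in reads per 1000000 mature reads of miR-378, stood at 57.9 (47.1 to 70.4), 119.0 (98.1 to 143), 147 (126 to 171) and 1843 (1671 to 2028). Their level in SVSC MDI was far above that in the other 3 libraries. Of 9 miRNAs whose copies likewise share every exact read, 7 had copy-specific reads in both SVSC libraries. Among these miR-378 had the highest ratio with MDI, 12.8-fold per mature read over both copies. The next was miR-125b at 2.55-fold, and miR-101 and miR-24 went down to 0.604 and 0.509 times. miR-378 also had the lowest level of such reads in SVSC, 149.6 per 1000000 mature reads. Its 1918 in SVSC MDI was near miR-24 (1836, on 9 reads) and above miR-103 (1046, on 6 reads). The rest of the 7 stood at 13393 or more there. In IVSC miR-103 had the higher ratio with MDI, 3.03 beside 2.055 for miR-378. These ratios were compared after their values were seen, and the isomiR share of miR-378 as a whole was also highest in SVSC MDI (19.6%, beside 8.65% in SVSC).

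**Figure D4:**
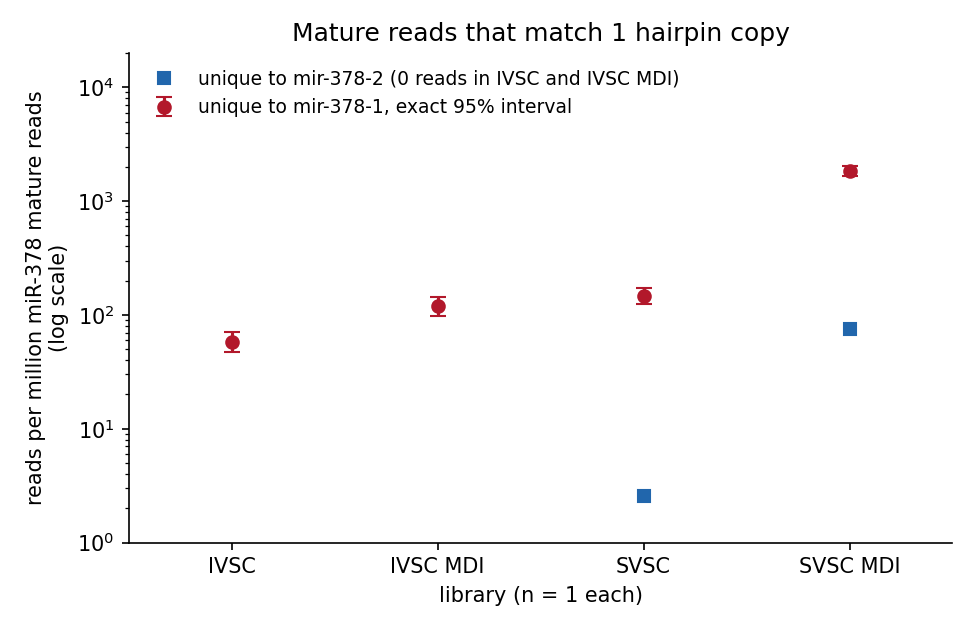
Mature reads that match only mir-378-1 (circles, with exact 95% intervals) or only mir-378-2 (squares), in reads per 1000000 mature reads of miR-378 on a log scale, by library. Reads unique to mir-378-1 lie at 57.9, 119.0, 147 and 1843, highest in SVSC MDI.

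The miRNAs nearest to miR-378 in profile were sought among 95 that averaged 100 CPM or more. Likeness was the root mean square difference of log2 CPM over the 4 libraries after each miRNA was centred on its own mean, which does not depend on scaling. The nearest was miR-15b, a member of a family that restrains the cell cycle, at 0.10, against a median of 0.72 over all. miR-15b had 836, 362, 421 and 600.4 CPM. It thus had its highest level in IVSC and its second highest in SVSC MDI, as miR-378 did. Then came miR-101 (0.23), miR-222 (0.24), miR-26a (0.33) and miR-374a (0.34). miR-101 stood at 4413, 3197, 2373 and 2993 CPM, and miR-26a at 2822, 2093, 1819 and 1594 CPM. With 4 libraries these are descriptions of likeness only.

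**Figure D5:**
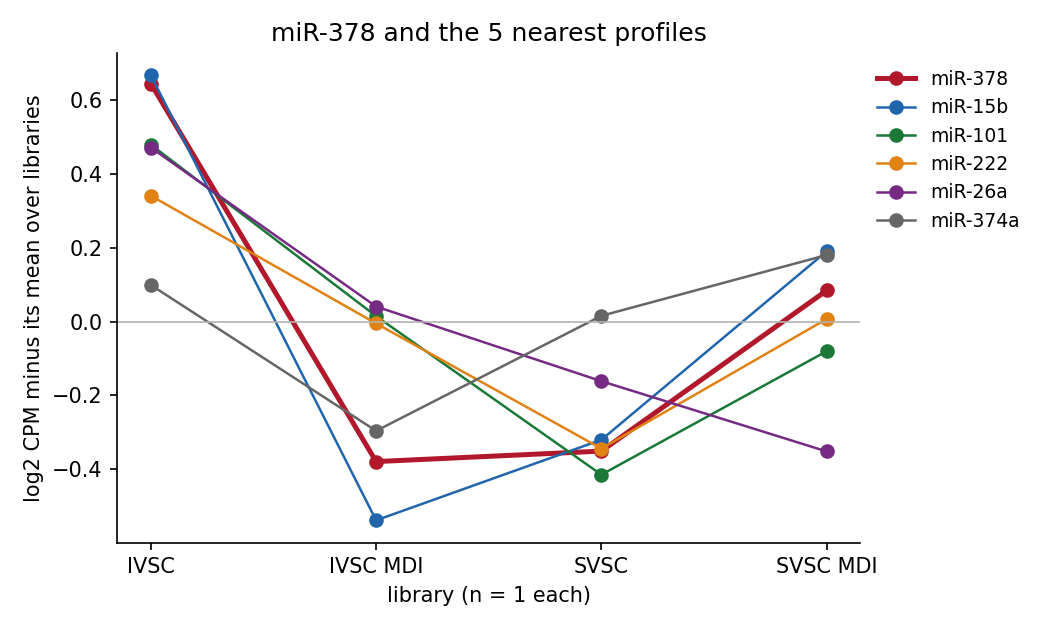
Log2 CPM minus its mean over the 4 libraries (y axis) for miR-378 and the 5 miRNAs nearest to it, with lines that only join the points of 1 miRNA. miR-15b follows miR-378 most closely (difference of 0.10), and miR-374a, the fifth, does so least (0.34).

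Among 28 miRNAs at 1000 CPM or more in all libraries, 4 had ratios with MDI below 1 in IVSC and above 1 in SVSC: miR-378, miR-148a, miR-199a and miR-101. miR-148a, which is reported to promote adipogenesis, stood at 44496, 30375, 16546 and 43045 CPM. Its ratio was 0.683 (0.680 to 0.685) in IVSC and 2.60 (2.58 to 2.62) in SVSC. A further 7 showed the opposite pattern, among them miR-21 and miR-103.

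miR-378 was set beside other miRNAs of metabolic host genes and of adipogenesis, from lists written with earlier results of these data known. Of 7 miRNAs in introns of metabolic or myosin genes, 4 were detected. miR-378 made up 97.9%, 95.9%, 90.2% and 97.5% of their summed reads. Its reads were counted over both copies, and mir-378-2 lies within BCAS3. These are thus not shares of reads made from metabolic introns. miR-103, in the introns of PANK genes for coenzyme A synthesis, stood at 2689, 2738, 6981 and 2256 CPM. It was thus highest in SVSC, where miR-378 was not. Its ratio with MDI was 1.02 (1.00 to 1.03) in IVSC and it fell in SVSC, with a ratio of 0.323 (0.315 to 0.332). miR-107, in another PANK gene, also fell in SVSC (0.414; 0.334 to 0.509), and had a ratio of 0.594 in IVSC. miR-499, in a myosin gene, had 169, 197, 165 and 27 reads and passed 2-fold in neither culture. The median log2 ratio of these 3 was 0.03 in IVSC and -1.27 in SVSC, beside -0.04 and 0.41 over all miRNAs tested.

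Of 17 other tested miRNAs reported to promote adipogenesis, 6 rose and 2 fell with MDI in IVSC (median log2 ratio 0.15) and 7 rose and 6 fell in SVSC (0.61). Over all miRNAs tested, 16.4% rose and 23.7% fell in IVSC, and 34.2% rose and 21.9% fell in SVSC, and the counts of each list are to be read beside these shares. miR-378, with miR-20a and miR-320, was thus among 3 of the list that fell in IVSC. The members furthest from 1 were miR-146b (7.83), miR-210 (4.84), miR-30b (3.72) and miR-181a (2.56) in IVSC. In SVSC they were miR-30b (11.0), miR-30c (5.57), miR-30a (5.20) and miR-20a (0.236). Of the inhibitor list, 3 of 16 rose and 3 fell in IVSC (0.13), and 3 of 15 rose and 3 fell in SVSC (0.35), against 16.4% and 23.7% of all miRNAs in IVSC and 34.2% and 21.9% in SVSC. The furthest were miR-224 (25.4, on 12 and 340 reads), miR-145 (5.30), miR-221 (0.224) and miR-130b (0.317) in IVSC, and miR-145 (8.31), miR-125a (4.85), miR-130b (0.266) and let-7e (2.63) in SVSC.

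Among miRNAs linked to brown fat, miR-378 was by far the most abundant, with 97.6%, 90.9%, 93.5% and 88.8% of the reads of the 13 detected. Of the 11 others tested, 6 rose and miR-133b, which is also a skeletal muscle miRNA, fell in IVSC (median log2 ratio 1.01). In SVSC 8 rose and none fell (2.48). Of all miRNAs tested 16.4% rose in IVSC and 34.2% in SVSC. Among the 8 are miR-133a and miR-133b, skeletal muscle miRNAs as well, of which miR-133b rests on 24 and 42 reads. The list was not split into promoters and inhibitors of brown fat. Its members miR-27b and miR-155 also stand on the list of adipogenesis inhibitors. The counts therefore give no direction for brown fat. miR-193a, which promotes brown adipocyte differentiation in mice, rose in both, from 61.5 to 234.6 CPM in IVSC and from 38.0 to 267 CPM in SVSC. Of 22 tested miRNAs in introns of other host genes, 3 rose and 5 fell in IVSC and 5 rose and 4 fell in SVSC, with medians of 0.01 and 0.30. Of all miRNAs 16.4% rose and 23.7% fell in IVSC, and 34.2% rose and 21.9% fell in SVSC, so these counts are near or below the background. Of these list medians, those of the inhibitors and of the other host genes in SVSC turn negative under TMM, DESeq2 or all-read scaling, which lower every SVSC log2 ratio by 0.43 to 0.50. The IVSC medians of both host gene lists lie within the shifts that scaling brings and have no fixed sign.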

How the data were processed

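Per the labels' protocols, each library began with some 10 µg of RNA, kept fragments of 16 to 35 nt, had 12 PCR cycles and was sequenced for 36. Per the file headers, the authors deposited read counts per feature of 4 resources (pig hairpins, Rfam, piRNAs and the Ensembl ncRNA set of Sscrofa9.61). The deposited counts are split into mature reads, exactly matching reads, star reads and others. In the SVSC file the column of uniquely matching reads holds 1 other, damaged value in a tRNA entry, so only its hairpin entries were used. Entries with no resource name (3 in SVSC, 1 in SVSC MDI) were left out. The submitters' processing notes name the build mm9 without a role. For the aligner, mismatches and trimming: not given in the sources used here.

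Hairpin copies were counted once (largest copy plus mature reads unique to the others) and scaled to miRNA reads. Ratios have exact 95% Clopper-Pearson intervals (SciPy 1.17.1, Python 3.11.15). Their computation was checked on simulated counts that held counting error only. That check does not cover PCR copies or a spread between cultures. Alternatives used TMM (edgeR 4.0.16), DESeq2 1.42.0 size factors, other totals, read classes and copy rules. Named miRNAs were the 5 nearest profiles, rank neighbours, abundant miRNAs with the same pattern of ratios and list members. The members and lists were chosen with earlier results of these data known. No sequence of miR-378 was used here.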

Additional observations from a re-analysis of the deposited data

Results flagged for a closer look

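miR-378 had a log2 ratio with MDI of -1.02 in IVSC and 0.44 in SVSC, so the 2 cultures moved in opposite directions, by a difference of 1.46. The same was seen for miR-148a (difference of 1.93), miR-199a (1.15) and miR-101 (0.80) among miRNAs at 1000 CPM or more. With 1 library per group none of these differences was tested. The opposite directions held under 7 of 11 ways of counting and scaling for miR-378, 11 for miR-148a, 5 for miR-199a and 7 for miR-101. The difference itself stayed above 0 in all 11, from 0.76 to 1.70 for miR-378, 1.23 to 2.18 for miR-148a, 0.23 to 1.30 for miR-199a and 0.10 to 1.04 for miR-101.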

How the results depend on the processing

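The fall of miR-378 in IVSC was short of 2-fold under scaling to all listed reads (ratio 0.572; 0.552 with hairpin copies counted once, a setting chosen after seeing the data), without miR-143 and miR-21 in the total (0.631), on mature reads scaled to all mature reads (0.516), on exactly matching reads scaled to all such reads (0.518) and with copies summed (0.521). In SVSC the ratio turned below 1 under TMM (0.953), all listed reads (0.966, or 0.962 with copies once) and exactly matching reads scaled to their own total (0.907). SVSC against IVSC passed 2-fold without miR-378 in the total (0.466) and on mature reads scaled to their own total (0.432), and SVSC MDI against IVSC MDI turned below 1 under all listed reads (0.962, or 0.958 with copies once). The other alternatives kept direction and call, the cause of the other changes was not tested, and isomiR shares over all hairpin reads stayed within their intervals. With all miRNA reads as the total, mature and exactly matching reads in IVSC had ratios of 0.492 and 0.488, past 2-fold. The calls were thus lost with the change of total. The totals of mature and of exactly matching reads leave out most miR-143 reads. The isomiR shares could not be computed on uniquely matching reads, as no exact read of miR-378 is unique.

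TMM, DESeq2 and all-read scaling moved every log2 ratio by -0.04, -0.02 and 0.22 in IVSC and by -0.50, -0.43 and -0.49 in SVSC. Counts of called miRNAs moved by over 1.5 times as follows: those lower with MDI in IVSC ran from 19 to 40 (36 at first) and those higher from 17 to 42 (25). In SVSC they ran from 20 to 45 (32) and from 33 to 63 (50). Between origins before induction, 6 to 28 were higher (11) and 16 to 46 lower (31), and after induction 7 to 29 higher (26) and 8 to 38 lower (15). No paired analysis was possible because each group holds 1 library. The SVSC MDI library, the shallowest, limits low counts most.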
